A study of Mus musculus with 39 samples.

Results

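PIWI-interacting RNAs (piRNAs) are small RNAs of germ cells that guide PIWI proteins to transposon transcripts and other targets, and 10 mouse genes of this pathway were followed through postnatal testis development: Piwil1, Piwil2, Piwil4, Tdrd1, Tdrd5, Tdrd6, Tdrd9, Mov10l1, Mael and Asz1. They were taken by gene symbol from the 21561 Ensembl genes listed in both deposited count tables, each was found once in either table, and all 10 passed the filter on low counts in every comparison. RNA-seq had been carried out on whole testes of male C57BL/6J mice with 3 libraries in each of 8 groups, 24 in all. Wild-type (WT) mice and mice carrying a cetacean INSL3 knock-in (INSL3-KI) were sampled at postnatal day 8 (P8), P23 and P40, and INSL3 knockout (INSL3-KO) mice at P8 and P23. INSL3 is the Leydig cell hormone that drives descent of the testis through the gubernaculum. In INSL3-KI mice, minke whale cDNA took the place of the coding sequence at the mouse locus, with the mouse regulatory elements kept, in homozygous animals of a line made from targeted embryonic stem cells, with the neomycin cassette removed by Cre; how many independent clones the line goes back to is not given. The sources used here do not describe how the INSL3-KO line was made.

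In the mouse testis, MILI (Piwil2) and MIWI2 (Piwil4) act with piRNAs in fetal and newborn germ cells, where piRNAs direct DNA methylation of transposons, and MILI and MIWI (Piwil1) act from meiosis onwards, when pachytene piRNAs are made in large amounts. Mov10l1 is the RNA helicase that feeds piRNA precursors into processing, Asz1 (GASZ) anchors the machinery at mitochondria, Mael is a component of the perinuclear granules, and the Tudor domain proteins Tdrd1, Tdrd5, Tdrd6 and Tdrd9 bind PIWI proteins or work beside them. The genes are used by germ cells at different stages, so the level of each in whole testis follows the make-up of the tissue as well as its transcription. In bulk RNA, fewer cells of a type and less RNA per cell cannot be told apart.

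The testis libraries held between 33000204 and 42629270 counts. WT and INSL3-KI libraries came in a first table and the INSL3-KO libraries in a second, with the WT P23 testis libraries also in the second. For P8 INSL3-KO versus WT, P8 and P23 INSL3-KI versus INSL3-KO, P23 INSL3-KI versus WT and WT P23 against the other WT ages, a difference between the tables and one between the groups cannot be told apart. Endogenous Insl3, which checks the genotype, was at 801 to 1100 FPKM (fragments per length of transcript and depth of library) in WT testis at P23 and P40 and at 0 to 0.18 FPKM in INSL3-KO testis at P23. The libraries labelled INSL3-KO at P8 went against the label in part, with 25.1 to 33.5 FPKM beside 110 to 139 FPKM in WT. In INSL3-KI testis, where reads on the mouse gene do not measure the whale cDNA, it ranged from 0.684 to 22.0 FPKM. Of the INSL3-KI libraries, 3 stood apart from their group: P8 replicate 2, P23 replicate 3 and P40 replicate 1. The last pair resembled each other (Pearson r = 0.988 across genes on the log scale) more than their own groups (0.914 to 0.941 and 0.929 to 0.930). Whether libraries were exchanged or mixed between groups was not tested, and results that rest on these libraries are given with and without them.

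In adult WT testis the 10 genes covered a wide range of levels per length. Mael (chr1:166201201-166238747, minus strand, GRCm38) was the most abundant in WT testis at P40, with 685 ± 20.8 FPKM (mean ± SD, n = 3). Tdrd6 (chr17:43615335-43630299, minus), a Tudor protein of the chromatoid body, and Piwil1 (chr5:128702524-128755474, plus), the PIWI protein of pachytene and post-meiotic cells, came next with 137 ± 3.0 and 117 ± 16.1 FPKM, and their libraries overlapped. Piwil2 (chr14:70372477-70429383, minus), Tdrd1 (chr19:56826209-56870012, plus), Tdrd5 (chr1:156255296-156303664, minus) and Tdrd9 (chr12:111971559-112068854, plus) followed at 42.7 ± 1.49, 40.1 ± 3.94, 33.4 ± 3.90 and 32.01 ± 0.614 FPKM, each overlapping the next. Mov10l1 (chr15:88982909-89055152, plus) at 25.8 ± 2.44 FPKM and Asz1 (chr6:18050964-18109061, minus) at 12.0 ± 1.12 FPKM were each separated from their neighbours. Piwil4 (chr9:14696230-14740733, minus) stood last at 0.127 ± 0.0700 FPKM, from 9 to 30 counts in a library. The annotation places an antisense gene over Piwil4, over Tdrd5 and, as the protein-coding Rd3l, over Tdrd9, and a transcript of unclear status opposite Piwil1. Whether the counting used strand is not given in the sources used here, so reads of these overlapping genes may be included. In the 15 gubernaculum libraries of the series the pathway genes were low, with a highest value of 4.34 FPKM for Mael, 1.57 FPKM for Tdrd1 and under 1 FPKM for the other 8. For Piwil4 the gubernaculum range, 0.073 to 0.603 FPKM (median 0.183), overlapped that of WT testis at P23 (0.058 to 0.128) and P40 (0.068 to 0.204). Its WT values at these ages were thus no higher than in a tissue other than testis.

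**Figure D1:**
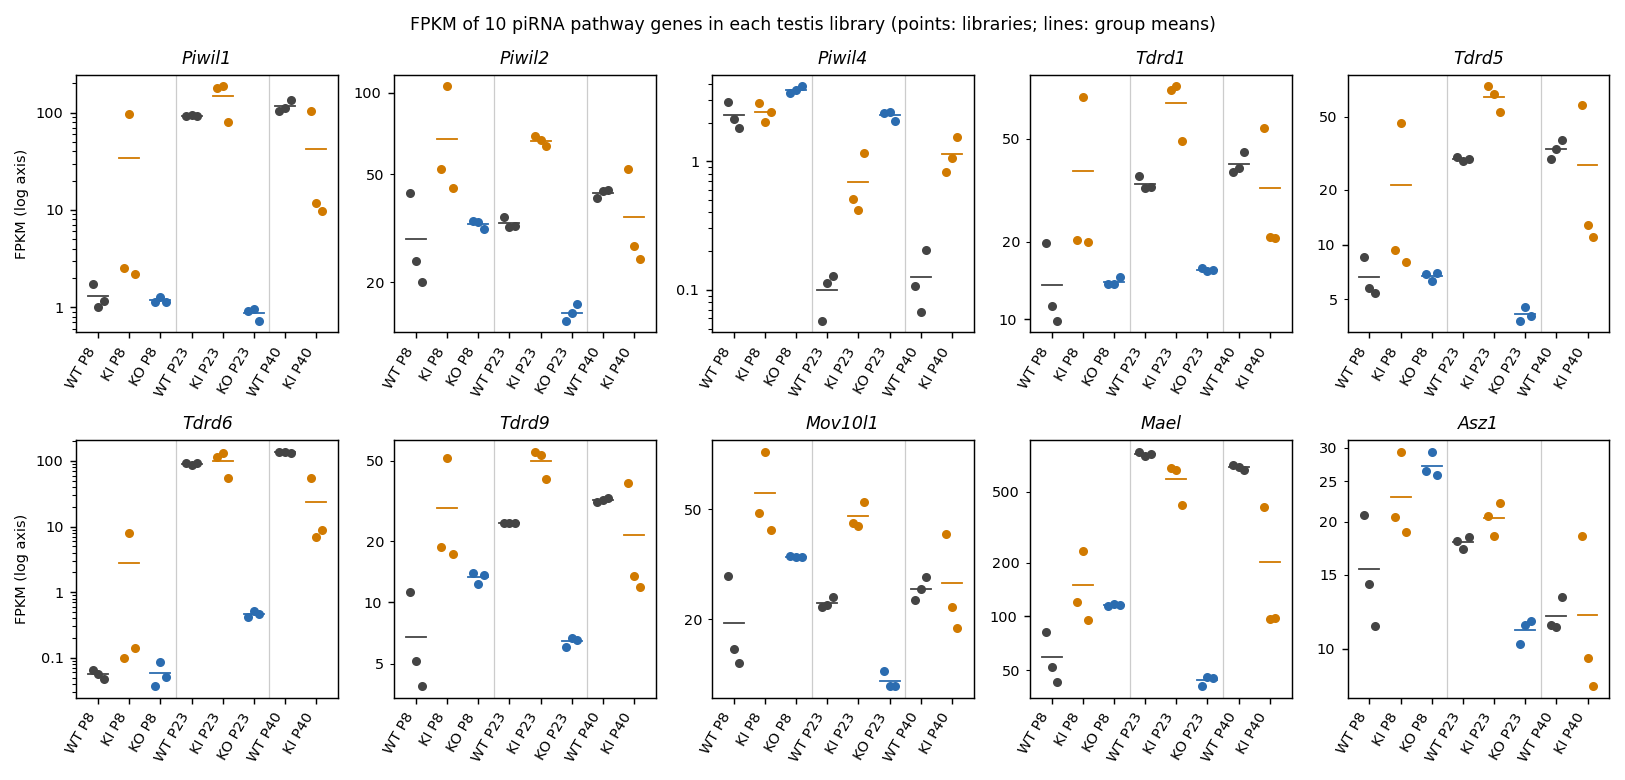
FPKM (log axis) of each of the 10 genes in the 24 testis libraries, with groups ordered by age, points for libraries (replicates 1 to 3 from left to right), lines for group means, and WT in grey, INSL3-KI in orange and INSL3-KO in blue. Piwil1 lies between 91.6 and 95.4 FPKM in WT and between 0.725 and 0.959 FPKM in INSL3-KO testis at P23, and Piwil4 shows the opposite order.

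Promoter sequences are shown for Piwil1, Mael, Tdrd9 and Mov10l1 because they hold the hexamer CACGTG, and for Asz1 and Piwil4 because they do not. Of these, Asz1 had the same directions as the first 4 (higher at P23 than at P8 in WT testis and lower in INSL3-KO than in WT testis at P23) and Piwil4 the opposite. Tdrd5 is not shown and also had no CACGTG in its window. It had the directions of the first 4, with log2 fold changes of 2.95 and -3.49. RefSeq promoter windows (GRCm38.p6, from 250 bases before the transcription start) were given for 8 of the 10 genes, all except Piwil2 and Tdrd6. Each line gives the longest stretch of the 250 bases upstream that lies outside annotated exons, read on the strand of the gene from 5′ to 3′, and capitals mark CACGTG, the E-box hexamer read by many basic helix-loop-helix factors. The stretches are chr5:128736030-128736173 (plus) for Piwil1, which lies inside the span of the longer annotated gene, chr1:166238748-166238994 (minus) for Mael, chr12:111971309-111971558 (plus) for Tdrd9, chr15:88982744-88982908 (plus) for Mov10l1, chr6:18109062-18109311 (minus) for Asz1 and chr9:14740734-14740922 (minus) for Piwil4.
Piwil1: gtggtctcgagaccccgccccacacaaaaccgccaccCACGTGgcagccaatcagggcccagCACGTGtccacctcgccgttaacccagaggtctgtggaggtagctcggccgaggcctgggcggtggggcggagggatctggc
Mael: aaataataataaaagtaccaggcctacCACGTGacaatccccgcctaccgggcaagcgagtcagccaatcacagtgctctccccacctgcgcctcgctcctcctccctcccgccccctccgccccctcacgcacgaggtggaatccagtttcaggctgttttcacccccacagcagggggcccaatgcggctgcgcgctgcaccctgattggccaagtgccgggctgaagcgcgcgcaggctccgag
Tdrd9: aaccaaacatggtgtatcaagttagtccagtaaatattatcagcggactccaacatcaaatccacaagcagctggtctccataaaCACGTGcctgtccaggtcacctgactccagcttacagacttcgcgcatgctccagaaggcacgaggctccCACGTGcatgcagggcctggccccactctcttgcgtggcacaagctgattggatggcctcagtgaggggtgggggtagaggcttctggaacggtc
Mov10l1: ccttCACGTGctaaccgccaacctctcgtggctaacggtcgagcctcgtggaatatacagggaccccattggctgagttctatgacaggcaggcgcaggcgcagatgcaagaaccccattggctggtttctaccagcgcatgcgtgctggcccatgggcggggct
Asz1: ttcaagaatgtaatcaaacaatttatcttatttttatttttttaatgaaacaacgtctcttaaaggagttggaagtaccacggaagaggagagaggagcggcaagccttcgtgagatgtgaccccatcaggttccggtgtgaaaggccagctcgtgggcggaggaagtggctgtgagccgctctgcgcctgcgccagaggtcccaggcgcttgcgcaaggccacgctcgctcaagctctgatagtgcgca
Piwil4: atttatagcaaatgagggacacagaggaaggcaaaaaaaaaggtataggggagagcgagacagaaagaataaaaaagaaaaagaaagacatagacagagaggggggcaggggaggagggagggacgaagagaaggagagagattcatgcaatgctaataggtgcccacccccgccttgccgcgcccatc

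CACGTG, which reads the same on both strands, was in the 250 upstream bases of 5 of the 8 genes: Piwil1 and Tdrd9 with 2 copies each, and Tdrd1, Mov10l1 and Mael with 1 copy each. Over all 27025 genes with a window, 6.86% held it in at least 1 window (6.02% of 32851 windows). The core letters of MYB sites, searched on both strands, were less selective. AACTG was found for 4 of the 8 genes (Piwil1, Piwil4 in its second window, Tdrd1 and Mael) against 42.6% of all genes, and AACGG for 4 (Piwil1, Tdrd5, Tdrd9 and Mov10l1) against 16.5%. None of these matches overlapped another in the same window, and the first Piwil4 window and that of Asz1 held none of the 3 motifs. These are matches of letters, and binding was not measured in this series.

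The first question was how the pathway genes change as the WT testis matures. From P8 to P23, when the first wave of germ cells passes through meiosis, 9 of the 10 genes rose and 1 fell in WT testis (edgeR quasi-likelihood test, called where the Benjamini-Hochberg adjusted p was under 0.01 and the change 2-fold or more). Of all 16908 genes tested, 32.8% were called higher and 29.0% lower. Tdrd6 was at 0.0653, 0.0565 and 0.0481 FPKM at P8 and at 92.6, 87.6 and 93.5 FPKM at P23, a log2 fold change of 11.24 ± 0.11 (SE) with adjusted p = 3.4e-09. Piwil1 rose from 1.72, 1.01 and 1.15 FPKM to 91.6, 95.4 and 93.5 FPKM (7.09 ± 0.22, adjusted p = 8.3e-08). Mael rose by 4.64 ± 0.24, from 81.6, 52.1 and 42.9 FPKM to 839, 792 and 815 FPKM. These 3 genes had P8 and P23 libraries that were far apart. Mael already had the highest mean of the 10 genes at P8, 58.8 FPKM.

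The other genes moved less. Tdrd5, Tdrd9 and Tdrd1 rose by 2.95 ± 0.17, 2.69 ± 0.37 and 2.17 ± 0.24 on the log2 scale, with no overlap of FPKM between the ages. Piwil2, Mov10l1 and Asz1, which are already used by spermatogonia, rose by 1.07 ± 0.25, 1.05 ± 0.25 and 1.05 ± 0.20 (adjusted p between 0.0016 and 0.0053). Their FPKM overlapped between the ages: Piwil2 was at 42.9, 24.0 and 20.1 FPKM at P8 and 34.8, 32.1 and 32.2 FPKM at P23. Scaling by library size in place of TMM left these 3 under the threshold (6 genes higher and 1 lower), since the median of all genes moved from 0.01 to -0.74 on the log2 scale and the calls over all genes from 4908 lower and 5554 higher to 7239 and 4236. Without WT P8 replicate 2 or replicate 3, 6 genes were called higher. Piwil2 and Mov10l1 also lost their calls when WT P23 replicate 1, 2 or 3 was left out (adjusted p between 0.017 and 0.024 by edgeR). The shares of all genes called in these fits are not given here. Piwil4 fell by 3.62 ± 0.36 (adjusted p = 4.6e-05), from 2.87, 2.13 and 1.83 FPKM to 0.0576, 0.113 and 0.128 FPKM.

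Between P23 and P40 the WT levels were close, and 0 of 10 genes passed both thresholds, where 4.64% of 16438 genes did. Of the 10, 7 had an unadjusted p under 0.05 by edgeR (8431 of all genes) and 5 an adjusted p under 0.01, and DESeq2 and limma on FPKM also called 0. Tdrd6 had the largest value, with a log2 fold change of 0.65 ± 0.06 (adjusted p = 1.5e-05, from 87.6 to 93.5 FPKM at P23 to 134 to 139 FPKM at P40), and Asz1 the lowest, with -0.66 ± 0.08 (adjusted p = 8.4e-05). Across the whole interval from P8 to P40, measured within the first table, 8 genes rose and Piwil4 fell, with Tdrd6 at 11.83 ± 0.14 and Piwil1 at 7.28 ± 0.24, while Asz1 had a log2 fold change of 0.34 ± 0.20 (adjusted p = 0.16). In that comparison 31.9% of 16892 genes were called higher and 27.8% lower. Mov10l1 lost its call there when WT P8 replicate 2 or 3, or WT P40 replicate 1, 2 or 3, was left out.

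The comparison of INSL3-KO with WT testis at P23, within the second table, asked what happened to the pathway in testes without the hormone. All 10 genes changed: 9 were lower and Piwil4 was higher in INSL3-KO testis. Of 16732 genes tested, 33.4% were called lower and 31.1% higher, so changes were common across the transcriptome, and the list had a median log2 fold change of -2.15 beside 0.06 for all genes. Tdrd6 was at 0.417, 0.517 and 0.461 FPKM in INSL3-KO testis, against 92.6, 87.6 and 93.5 FPKM in WT (log2 fold change -8.39 ± 0.07, adjusted p = 1.9e-13). Piwil1 was at 0.913, 0.959 and 0.725 FPKM against 91.6, 95.4 and 93.5 FPKM (-7.40 ± 0.09, adjusted p = 6.4e-13). Mael was at 40.7, 45.5 and 45.1 FPKM against 839, 792 and 815 FPKM (-4.87 ± 0.05). No INSL3-KO library came near the WT range at P23 for these genes.

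Among the Tudor genes, Tdrd5 fell by 3.49 ± 0.06, Tdrd9 by 2.56 ± 0.06 and Tdrd1 by 1.71 ± 0.05 on the log2 scale. Tdrd5 is needed for pachytene piRNA production, and Tdrd9 is a helicase partner of MIWI2 that is also made in meiotic cells. The genes already used in spermatogonia fell by amounts near that of Tdrd1: Piwil2 by 1.74 ± 0.06 (14.5, 15.4 and 16.6 FPKM against 34.8, 32.1 and 32.2 FPKM), Mov10l1 by 1.66 ± 0.06 and Asz1 by 1.33 ± 0.07 (adjusted p = 3.3e-08). Piwil4 rose by 3.48 ± 0.29 (adjusted p = 1.2e-06), with 2.37, 2.40 and 2.04 FPKM in INSL3-KO and 0.0576, 0.113 and 0.128 FPKM in WT testis. It was the only gene of the 10 whose INSL3-KO libraries lay above the WT libraries at P23. Scaled on the Sertoli cell markers, which moved the median of all genes to -2.68, its log2 fold change was 0.75 ± 0.31 (adjusted p = 0.038) and its call was lost, while the other 9 stayed lower.

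Markers of cell types moved in the same comparison. All 14 spermatocyte and all 13 spermatid markers were lower and all 13 Sertoli cell markers higher in INSL3-KO testis at P23. The summed FPKM of 8 pan germ cell markers, none of them among the 10 pathway genes, was 239 to 257 against 1057 to 1077 in WT, with 5 of the 8 called lower. The members of that list were not alike: Sycp3, a protein of the meiotic chromosome axis, was at 34.5 to 40.0 against 164 to 183 FPKM, and Dazl, an RNA-binding protein of germ cells from early stages on, at 66.3 to 80.3 against 56.3 to 63.1 FPKM. Of 14 spermatogonia markers, 8 were higher and 2 lower in INSL3-KO testis, with sums of 349 to 369 against 91.4 to 97.0 FPKM, and all 7 macrophage and all 5 peritubular cell markers were higher. For the Sertoli list (among them Sox9 and Amh) the sums were 7074 to 7127 against 876 to 915 FPKM. Scaling the libraries on the 8 pan germ cell markers in place of TMM moved the median of all genes to 2.04 on the log2 scale and the calls over all genes from 5584 lower and 5199 higher to 2990 and 10751. On that scale Tdrd6 (-6.41 ± 0.08), Piwil1 (-5.42 ± 0.10), Mael (-2.89 ± 0.04) and Tdrd5 (-1.51 ± 0.06) were still called lower and Piwil4 higher (5.45 ± 0.28). Tdrd9 was at -0.58 ± 0.05 and was not called. The direction turned for Piwil2, Tdrd1, Mov10l1 and Asz1, which had log2 fold changes of 0.24 to 0.65, none of them called. The part of the cell make-up in the change of single genes was not tested.

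**Figure D2:**
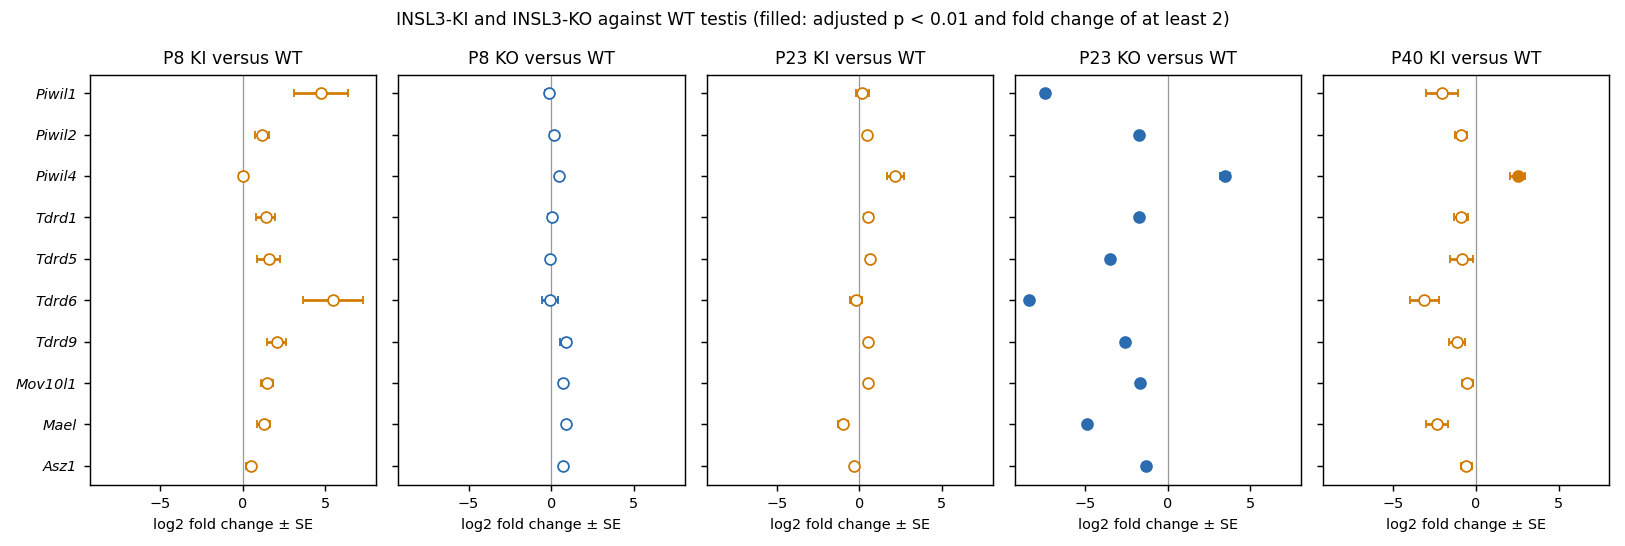
Log2 fold change ± SE (horizontal axis, edgeR with TMM) of each of the 10 genes (vertical axis) in INSL3-KI (orange) and INSL3-KO (blue) against WT testis at each age, with filled points for genes that passed both thresholds (adjusted p under 0.01, change of 2-fold or more). All 10 points are filled for INSL3-KO at P23 and 1, Piwil4, for INSL3-KI at P40.

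In INSL3-KI testis at P23, 0 of the 10 genes passed both thresholds against WT by edgeR, where 20.6% of 16603 genes did. Of the 10, 7 had an unadjusted p under 0.05 (9717 of all genes), DESeq2 called 2 and limma called 2 on log2(FPKM + 1) and 5 on log2(FPKM + 0.1). Piwil1 was at 178, 187 and 81.2 FPKM against 91.6 to 95.4 FPKM in WT, so that replicate 3 lay below WT and the other INSL3-KI libraries above (log2 fold change 0.18 ± 0.37, adjusted p = 0.69). The mean FPKM and this fold change differ because TMM scaling and FPKM differ here: with library size alone the median of all genes was 0.55, against 0.08 with TMM, and 3 genes were called higher. The 20.6% belongs to the main edgeR fit. Shares of all genes called under the alternatives are not given here, so these counts of pathway genes have no background beside them. Mean FPKM of Piwil2, Tdrd1 and Tdrd5 was 66.4, 68.9 and 64.4 in INSL3-KI against 33.0, 33.6 and 29.4 in WT testis. For Tdrd9 and Mov10l1 it was 49.8 and 47.1 against 24.7 and 22.9, and the libraries did not overlap for any of these genes. Their log2 fold changes with TMM were between 0.465 and 0.618. Asz1 was also higher without overlap by FPKM (18.5 to 22.2 against 17.3 to 18.4 FPKM), yet had a TMM value of -0.33 ± 0.11. How many of all genes separate by FPKM was not counted, so these separations are not read as particular to the pathway. Piwil4 was at 0.507, 0.416 and 1.15 FPKM, all above WT, with a log2 fold change of 2.17 ± 0.50 (adjusted p = 0.012). Without replicate 3 it passed, at 1.70 ± 0.42 (adjusted p = 0.0074), and was the only gene called. Mael had the lowest value, -0.99 ± 0.28 (679, 663 and 420 FPKM against 792 to 839 FPKM).

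The INSL3-KI and INSL3-KO testes differed from each other at P23. There 9 of 10 genes were higher in INSL3-KI testis, against 25.2% of 16379 genes called higher and 13.0% lower, with log2 fold changes from 1.04 ± 0.13 for Asz1 to 8.22 ± 0.50 for Tdrd6 (adjusted p between 0.00016 and 0.00071). Piwil1 differed by 7.64 ± 0.50, Tdrd5 by 4.16 ± 0.22 and Mael by 3.93 ± 0.28. No INSL3-KO library overlapped an INSL3-KI library in FPKM for these 9 genes, but how many of all genes separate in this way was not counted. Piwil4 had a log2 fold change of -1.26 ± 0.36 (adjusted p = 0.019), and -1.72 ± 0.24 (adjusted p = 0.00026) without INSL3-KI replicate 3. Scaled on the pan germ cell markers, 5 genes were called higher (Piwil1, Tdrd5, Tdrd6, Tdrd9 and Mael) and Piwil4 lower, and Asz1 turned direction, at -0.84 ± 0.13. That scale shifts every gene of a library by the same amount, and the share of all genes called on it is not given here. The germ cell markers summed to 1035 to 1229 FPKM in INSL3-KI and 239 to 257 FPKM in INSL3-KO testis.

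At P40 the 3 INSL3-KI libraries disagreed. Piwil1 was at 104, 11.8 and 9.79 FPKM against 104, 111 and 135 FPKM in WT, Tdrd6 at 54.4, 6.90 and 8.87 FPKM against 139, 138 and 134 FPKM, and Mael at 410, 96.2 and 97.6 FPKM against 706, 685 and 664 FPKM. Replicate 1 was thus close to or below the WT range for these genes while the other libraries were far below it. With all libraries, 0 genes were called lower and 1, Piwil4, was called higher, where 22.1% of 16677 genes were called lower and 25.6% higher (2458 and 6583 genes with scaling by library size, against 3690 and 4264). The log2 fold changes were -2.04 ± 0.98 for Piwil1, -3.12 ± 0.89 for Tdrd6 (adjusted p = 0.018) and -2.35 ± 0.66 for Mael (adjusted p = 0.018). Unadjusted p was under 0.05 for 4 of the 10 and for 13200 of all genes, and DESeq2 called Piwil2, Tdrd6 and Mael lower but gave no adjusted p for Piwil1.

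Without replicate 1, 8 genes were lower and Piwil4 was higher, where 31.0% of 17023 genes were called lower and 28.0% higher. Tdrd6 had a log2 fold change of -4.77 ± 0.13, Piwil1 of -4.08 ± 0.14, Mael of -3.47 ± 0.08 and Tdrd5 of -2.15 ± 0.11. Tdrd9, Tdrd1, Piwil2 and Asz1 were at -1.97 ± 0.09, -1.59 ± 0.08, -1.38 ± 0.08 and -1.08 ± 0.12, and Mov10l1, at -0.99 ± 0.10, missed the fold threshold. Piwil4 was at 0.826, 1.06 and 1.56 FPKM in INSL3-KI and 0.108, 0.0678 and 0.204 FPKM in WT testis, above WT in every library (2.52 ± 0.45, adjusted p = 0.0028, and 2.68 ± 0.44 without replicate 1). Its call was lost without WT replicate 1 (2.45 ± 0.55, adjusted p = 0.015) and when scaled on the Sertoli markers (0.18 ± 0.39), a scale on which 7 of the other genes were called lower. Scaled on the pan germ cell markers, Piwil1, Tdrd6 and Mael were called lower and Piwil4 higher. Both marker scales shift every gene of a library by the same amount, and the shares of all genes called on them are not given here.

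The marker lists split the P40 libraries in the same way. The pan germ cell markers summed to 945, 389 and 317 FPKM in INSL3-KI replicates 1, 2 and 3, against 827 to 923 FPKM in WT, and the 14 spermatocyte markers to 1645, 308 and 311 FPKM against 3164 to 3509 FPKM. The 13 spermatid markers summed to 174, 28.5 and 31.5 FPKM against 10823 to 12454 FPKM, so that replicate 1 also lay far below WT for the latest cells. Sertoli cell markers ran the other way, at 3871, 6157 and 5974 FPKM against 761 to 938 FPKM. Their part in the pathway genes' values was not tested.

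**Figure D3:**
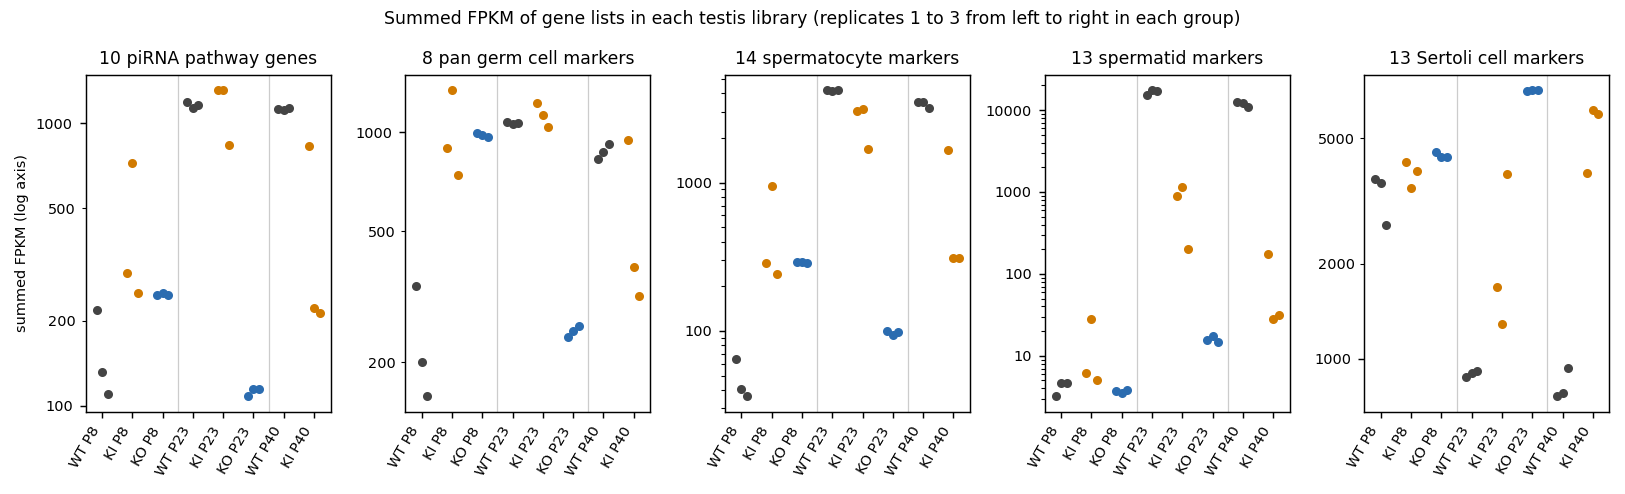
Summed FPKM (log axis) of the 10 piRNA pathway genes and of 4 marker lists in each testis library, with WT in grey, INSL3-KI in orange, INSL3-KO in blue and replicates 1 to 3 from left to right. The sum of the 10 genes is 108 to 114 FPKM in INSL3-KO at P23, and in INSL3-KI at P40 it is 833 FPKM in replicate 1 and 213 to 222 FPKM in the others.

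**Figure D4:**
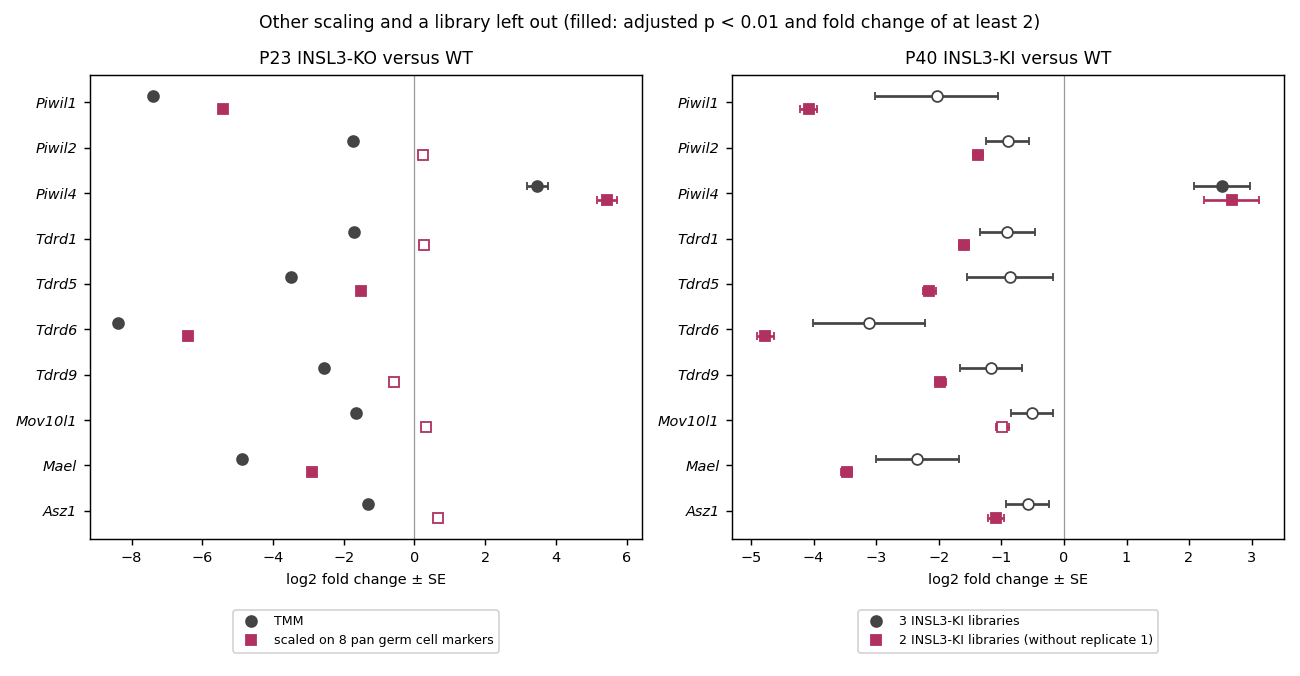
Log2 fold change ± SE (horizontal axis) of each of the 10 genes (vertical axis), for INSL3-KO at P23 with TMM (circles) and scaled on the pan germ cell markers (squares), and for INSL3-KI at P40 with all libraries (circles) and without INSL3-KI replicate 1 (squares); filled points passed both thresholds. Piwil2, Tdrd1, Mov10l1 and Asz1 cross 0 in the first panel, and 8 genes are called lower in the second once replicate 1 is left out.

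At P8, before most germ cells enter meiosis, no pathway gene passed both thresholds in any of the 3 comparisons by edgeR. For INSL3-KI against WT, 6.29% of 15702 genes did, 7 of the 10 pathway genes and 7530 of all genes had an unadjusted p under 0.05, and DESeq2 called 4 higher (Piwil2, Tdrd9, Mov10l1 and Mael). INSL3-KI replicate 2 set the size of the differences: Piwil1 was at 2.54, 97.5 and 2.20 FPKM and Tdrd6 at 0.101, 8.10 and 0.140 FPKM, against 1.01 to 1.72 and 0.0481 to 0.0653 FPKM in WT. The log2 fold change of Piwil1 was 4.75 ± 1.64 with this library and 0.74 ± 0.30 without it, and the median over the 10 genes was 1.44 and 0.68. Tdrd9 and Mov10l1 had 1.31 ± 0.42 and 1.11 ± 0.30 without it (adjusted p = 0.06 and 0.036).

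For the libraries labelled INSL3-KO against WT at P8, 13.8% of 15723 genes passed and 5 of the 10 pathway genes had an unadjusted p under 0.05, as did 9369 of all genes. DESeq2 called 0 and limma on log2(FPKM + 1) called 1. Mael was at 114, 118 and 116 FPKM against 81.6, 52.1 and 42.9 FPKM in WT (0.91 ± 0.20, adjusted p = 0.0074), under the fold threshold. Without WT replicate 1, the highest WT library for all 10 genes, Tdrd9 (1.48 ± 0.12), Mael (1.23 ± 0.09), Mov10l1 (1.10 ± 0.07) and Asz1 (1.03 ± 0.12) were called higher. The 13.8% is that of the fit with all libraries, and the share of all genes called without WT replicate 1 is not given here. Between INSL3-KI and the libraries labelled INSL3-KO, 3.92% of 15728 genes passed, and 7 pathway genes and 7013 of all genes had an unadjusted p under 0.05 by edgeR (DESeq2 and limma on FPKM also called 0).

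The summed pan germ cell and spermatocyte markers were lower in the WT libraries than in the others at this age, while the spermatogonia markers of WT and INSL3-KI libraries overlapped. The pan germ cell markers summed to 158 to 342 FPKM in WT, 742 to 1344 FPKM in INSL3-KI and 965 to 991 FPKM in the libraries labelled INSL3-KO, and the spermatocyte markers to 36.2 to 64.3, 240 to 947 and 289 to 292 FPKM. The sums of 1344 and 947 FPKM were those of INSL3-KI replicate 2, and replicate 1 was at 894 and 286 FPKM. Members of the pan germ cell list moved by unlike amounts. Sycp3 was at 7.99 to 21.3 FPKM in WT and 115 to 248 FPKM in INSL3-KI, and Dazl at 75.8 to 144 and 186 to 218 FPKM. The spermatogonia markers summed to 308 to 529 FPKM in WT, 405 to 573 FPKM in INSL3-KI and 611 to 648 FPKM in the libraries labelled INSL3-KO, with 0 of 14 called by edgeR between INSL3-KI and WT (4 at an unadjusted p under 0.05). Scaled on the pan germ cell markers, all 10 genes were called lower in the libraries labelled INSL3-KO than in WT, with log2 fold changes between -2.54 and -1.38, as were 14166 of all 15723 genes (median -2.53). For INSL3-KI against WT on that scale, Piwil1 and Tdrd6 were called higher and Piwil4 and Asz1 lower, beside 113 genes higher and 12983 lower of 15702. This scale shifts every gene of a library by the same amount, and the 10 lower calls stand beside lower calls of most genes tested. For the Piwil1 and Tdrd6 calls, INSL3-KI replicate 2 was at 97.5 and 8.10 FPKM. The other INSL3-KI libraries were at 2.20 to 2.54 and 0.101 to 0.140 FPKM, and the scale was not applied without replicate 2. What part the content and the stage of germ cells have in the P8 values was not tested.

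Changes with age within each mutant were measured next. From the P8 libraries labelled INSL3-KO, which hold mouse Insl3 as given above, to INSL3-KO testis at P23, 3 genes fell and 1 rose, where 11.7% of 15773 genes were called lower and 12.0% higher. Mov10l1 fell by 1.28 ± 0.04 (33.8, 33.5 and 33.4 FPKM to 13.0, 11.5 and 11.5 FPKM), Mael by 1.12 ± 0.04 and Asz1 by 1.00 ± 0.07, which is at the fold threshold. Tdrd6 rose by 2.94 ± 0.38, from 0.0372, 0.0869 and 0.0502 FPKM to 0.417, 0.517 and 0.461 FPKM, levels that stayed under 1 FPKM. Piwil1 had a log2 fold change of -0.16 ± 0.19 (1.12, 1.26 and 1.13 FPKM against 0.913, 0.959 and 0.725 FPKM). The Piwil4 value was -0.61 ± 0.13 (adjusted p = 0.0011), under the fold threshold, while it fell in WT testis over the same ages, and the difference between these changes was not tested.

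In INSL3-KI testis, 0 of 10 genes passed from P8 to P23, where 9.23% of 16412 genes did, with 4 of the 10 and 9144 of all genes at an unadjusted p under 0.05 and 4 of the 10 called by DESeq2. Without P8 replicate 2 alone, 6 genes were called higher, in a fit whose share over all genes is not given here. Without P8 replicate 2 and P23 replicate 3, 7 genes rose and Piwil4 fell by 1.88 ± 0.28, where 26.0% of 16810 genes were called higher and 15.8% lower. Tdrd6 rose by 10.55 ± 0.18, Piwil1 by 6.99 ± 0.15 and Mael by 3.24 ± 0.15 in these libraries. From P23 to P40, edgeR called none of 16328 genes (0.0%), with 7615 genes and 7 of the 10 pathway genes at an unadjusted p under 0.05, and DESeq2 called 829 genes lower and 316 higher, none of them among the 10. Without P23 replicate 3 and P40 replicate 1, 9 pathway genes fell, where 25.8% of 16662 genes were called lower: Piwil1 by 4.46 ± 0.12, Tdrd6 by 4.33 ± 0.14, Mael by 3.16 ± 0.08 and the other 6 by 1.49 to 2.94. Piwil4 was at 1.12 ± 0.31 (adjusted p = 0.012). These libraries were left out after their values had been seen.

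The difference between effects was tested directly in 2 contrasts. The INSL3-KI effect at P40 minus that at P8, within the first table, was negative for 5 genes (Tdrd6, Mael, Tdrd9, Piwil2 and Mov10l1) and positive for Piwil4 (2.46 ± 0.51, adjusted p = 0.0017), where 22.5% of 17354 genes were called lower and 23.2% higher. Tdrd6 was at -8.65 ± 2.20 and Mael at -3.70 ± 0.82 (adjusted p = 0.0026). Without INSL3-KI P40 replicate 1, 9 genes were lower, and without any 1 of 8 other libraries (INSL3-KI P8 replicate 2, WT P8 replicates 2 and 3, all 3 of WT P40, and INSL3-KI P40 replicates 2 and 3) only 1 was. Scaling by library size gave 2 lower and 1 higher. Without the libraries that stand apart, all 9 genes other than Piwil4 were lower, where 25.0% of 17606 genes were called lower and 23.6% higher. The change from P8 to P23 was lower in INSL3-KO than in INSL3-KI testis for Mael (-3.56 ± 0.49), Mov10l1 (-1.43 ± 0.30) and Asz1 (-1.27 ± 0.24), where 11.7% of 17052 genes were called lower and 7.79% higher. It was 9 genes without INSL3-KI P8 replicate 2, and 1 gene without INSL3-KI P8 replicate 1, P23 replicate 1, INSL3-KO P8 replicate 2 or any INSL3-KO P23 library. Without the libraries that stand apart this held for 9 genes, with Piwil4 higher (1.25 ± 0.26), where 21.4% of 17459 genes were called lower and 17.5% higher. The P8 libraries labelled INSL3-KO enter this last contrast.

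The remaining pathway was read from a list of 24 further genes. In INSL3-KO against WT testis at P23, 16 were lower and 1 was higher (33.4% and 31.1% over all genes), from Gtsf1 (-5.70 ± 0.06), a zinc finger partner of PIWI proteins, to Dnmt3c (1.83 ± 0.20), the DNA methyltransferase of young transposons. Ddx4, the germ cell helicase of the nuage, fell by 3.51 ± 0.05 (25.9 to 27.4 FPKM against 186 to 203 FPKM). Pld6, the mitochondrial nuclease of piRNA processing, had a log2 fold change of -3.63 ± 0.09, the Tudor gene Rnf17 of -3.48 ± 0.05 and Henmt1, which methylates piRNA ends, of -2.88 ± 0.10. Mybl1, which encodes the transcription factor A-MYB of pachytene piRNA precursors, fell by 1.53 ± 0.06 (7.34 to 7.97 FPKM against 13.4 to 15.02 FPKM). In WT testis from P8 to P23, 14 rose and 2 fell (32.8% and 29.0% over all genes), from Gtsf1 (5.34 ± 0.25) to Tex19.1 (-2.07 ± 0.17).

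Against INSL3-KO testis at P23, 14 of these genes were higher in INSL3-KI testis (25.2% over all genes), with Tcfl5 at 4.26 ± 0.31 and Tex15 at 1.06 ± 0.17. Against WT, INSL3-KI testis had 2 lower at P23, Dnmt3l (-3.37 ± 0.45) and Gtsf1 (-1.99 ± 0.30), and 3 lower and 1 higher at P40, from Dnmt3l (-4.01 ± 0.59) to Dnmt3c (1.69 ± 0.22). These counts are below the shares over all genes, 20.6% in either direction at P23, and 22.1% lower and 25.6% higher at P40. They include the INSL3-KI libraries that stand apart, and counts of this list without those libraries were not made. The spread at P40 was wide: Ddx4 ranged from 33.1 to 121 FPKM (median 37.6) in INSL3-KI testis, against 160 to 173 FPKM in WT. Gtsf1 was at 75.2 to 138 FPKM in INSL3-KI and 321 to 338 FPKM in WT testis. At P8, Tex15, a partner of MILI in transposon silencing, was higher in INSL3-KI testis (6.29% of all genes called) at a log2 fold change of 2.002 ± 0.221 (43.6 to 49.7 FPKM against 8.04 to 14.8 FPKM in WT). In the libraries labelled INSL3-KO at that age 3 were higher (13.8% of all genes called), from Tdrkh (1.07 ± 0.20) to Tex15 (2.07 ± 0.20). From P8 to P23 in the libraries labelled INSL3-KO, 12 fell and 1 rose (11.7% and 12.0% over all genes), from Tex15 (-2.29 ± 0.05) to Dnmt3c (1.11 ± 0.14).

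The 3 PIWI genes had different patterns over the 8 testis groups. By the correlation of group means of log2 CPM, the genes most like Piwil1 were Dnah7c, Katnal1, Dnah8, Fam181a and Hydin (Pearson r between 0.994 and 0.998), and 648 genes reached r = 0.95. For Piwil2 they were Wipi2, Ncoa5, Mbtd1, Abca5 and Snx27 (0.967 to 0.978), and 13 genes reached 0.95. For Piwil4 they included Polr2f, Smagp, Fhl2 and Trappc3 (0.997 to 0.999), and 1863 genes reached 0.95. Within the list, Piwil1 was most like Tdrd5 (0.973) and Tdrd6 (0.970), Piwil2 most like Mov10l1 (0.948), and Piwil4 ran against Tdrd6 (-0.910), Mael (-0.868) and Piwil1 (-0.858). These are descriptions over 8 points that share their libraries and their mix of cell types.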

How the data were processed

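Whole testes were sequenced as poly(A) RNA, 3 libraries in each of 8 groups, with between 33000204 and 42629270 counts (median 38405047) in a library. Alignment with HISAT2 to GRCm38 is named in the submitters' processing notes; the counting tool and annotation are not given in the sources used here. The authors deposited 2 gene tables with read counts and FPKM side by side; counts were used for tests and FPKM for levels. The tables list 22036 and 43339 genes, were joined on Ensembl ID (21561 shared genes, holding 94.16% to 97.86% of the counts), and 0 columns had no sample. Columns were grouped by the labels.

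Counts of the compared groups were tested with edgeR 4.0.16 (R 4.3.3): filterByExpr at a minimum count of 10, TMM normalization, the quasi-likelihood test and Benjamini-Hochberg adjustment across every gene that passed the filter. Calls needed an adjusted p under 0.01 and a change of 2-fold or more. Standard errors are those of the log2 fold change. The scripts were tested on simulated data. The labels call the libraries biological replicates, and p-values measure the spread between these samples only. Alternatives were DESeq2 1.42.0, no filter, library size scaling, scaling on marker lists, limma 3.58.1 on log2(FPKM + 1) and log2(FPKM + 0.1), 1 fit of all testis libraries, a replicate block and leaving out single libraries. Leaving out the 3 libraries that stand apart together was chosen after seeing the data.

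The 10 genes, the other lists and the tests were chosen with earlier results of these data known. All 10 genes are described. Of 24 other pathway genes, counts are given, with Ddx4, Mybl1, Tdrkh, Pld6, Rnf17, Gtsf1, Henmt1, Tex15, Dnmt3l and the called genes of largest and smallest log2 fold change named. The genes most like each PIWI gene are the 5 of highest Pearson r of group-mean log2(CPM + 0.5), among genes with a mean of at least 1 CPM; for Piwil4, 1 of the 5 is not reported here. Gene positions are from GENCODE M21 and promoter windows from RefSeq. Counting error alone was not separated from other spread in FPKM values, and genes under 30 counts in a library are the least precise. Overlap of FPKM between groups was looked at for the 10 genes only, and its share over all genes was not counted.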

Additional observations from a re-analysis of the deposited data

Results flagged for a closer look

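The INSL3-KI effect on the log2 scale differed between P40 and P8 for 6 of the 10 genes in the test of the difference itself (P40 minus P8, edgeR, adjusted p between 0.0017 and 0.0089), where 22.5% of all genes were called lower and 23.2% higher. Without any 1 of 8 single libraries, 1 of the 10 was lower and 1 higher. The difference was -8.65 for Tdrd6, -3.70 for Mael, -3.29 for Tdrd9, -2.12 for Piwil2, -2.08 for Mov10l1 and 2.46 for Piwil4. The change from P8 to P23 differed between INSL3-KO and INSL3-KI testis for 3 genes (INSL3-KO minus INSL3-KI, adjusted p between 0.0014 and 0.0047, with 11.7% of all genes called lower and 7.79% higher), by -3.56 for Mael, -1.43 for Mov10l1 and -1.27 for Asz1. Both contrasts hold libraries that stand apart from their group.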

How the results depend on the processing

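In INSL3-KO versus WT at P23, the 10 calls of pathway genes were kept in number when any single library was left out, and the count was 5 when scaled on the pan germ cell markers. Over 70 results of single genes in the comparisons of genotypes, 1045 alternative values were computed: 899 kept direction and side of the threshold, 18 lost the call, 66 gained it and 62 changed sign. The cause of these changes was not tested.

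Counts of called pathway genes moved as follows. The share of all genes called under an alternative, or with a library left out, is given only where stated above. At P8, INSL3-KI versus WT gave 0, and 4 with DESeq2, with 1 fit of all testis libraries and with the pan germ cell scale. INSL3-KO versus WT gave 0, but 1 with library size and with limma at either pseudocount, and 10 on the pan germ cell scale. INSL3-KI versus INSL3-KO gave 0, and 2 with 1 fit. At P23, INSL3-KI versus WT gave 0, and 2 with DESeq2, 3 with library size, 2 and 5 with limma (pseudocounts 1 and 0.1) and 1 with 1 fit. At P40, INSL3-KI versus WT gave 1, and 4 with DESeq2, 2 with limma at 0.1 and with 1 fit, 4 on the pan germ cell and 7 on the Sertoli scale. INSL3-KI from P8 to P23 gave 0, and 4 with DESeq2, 3 and 2 with limma, 4 with 1 fit and 8 without the libraries that stand apart. INSL3-KI from P23 to P40 gave 0, and 3 with 1 fit and 9 without those libraries. INSL3-KO from P8 to P23 gave 4, and 2 with 1 fit. The INSL3-KI effect (P40 minus P8) gave 6, and 3 with library size and with either limma fit, and 10 without those libraries. The change in INSL3-KO minus INSL3-KI gave 3, and 6 with DESeq2, 5 with either limma fit and 10 without those libraries.

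With single libraries left out, counts ranged from 0 to 4 (P8 INSL3-KO versus WT), 0 to 1 (P23 INSL3-KI versus WT), 0 to 9 (P40 INSL3-KI versus WT), 0 to 6 (INSL3-KI from P8 to P23), 8 to 10 (P23 INSL3-KI versus INSL3-KO), 7 to 10 (WT from P8 to P23), 2 to 10 (INSL3-KI effect) and 1 to 9 (INSL3-KO minus INSL3-KI).

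Replicate numbers did not pair the samples (correlations of deviations between -0.15 and 0.28). With a replicate block, INSL3-KI from P8 to P23 gave 1 called gene in place of 0, and no other count moved by over 1.5 times.

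Values that changed sign were these. P8 INSL3-KI versus WT on the pan germ cell scale gave Piwil2 -1.20, Tdrd1 -1.02, Tdrd5 -0.93, Tdrd9 -0.25, Mov10l1 -0.84, Mael -1.11 and Asz1 -1.85, and Piwil4 (main value -0.01) 0.00 with DESeq2, 0.10 with library size, 0.07 and 0.10 with limma and -0.14 to 0.13 without single libraries. P8 INSL3-KO versus WT on that scale gave Piwil2 -2.18, Piwil4 -1.92, Tdrd1 -2.30, Tdrd9 -1.38, Mov10l1 -1.65, Mael -1.46 and Asz1 -1.63, and on the Sertoli scale Piwil2 -0.40, Piwil4 -0.08 and Tdrd1 -0.51. Tdrd5 was at 0.07 with library size and 0.04 and 0.05 with limma, Tdrd6 at 0.06, 0.00 and 0.00. Without single libraries, Piwil1 was at -0.32 to 0.16, Piwil2 -0.04 to 0.56, Tdrd1 -0.13 to 0.42, Tdrd5 -0.17 to 0.19 and Tdrd6 -0.45 to 0.17, and in P8 INSL3-KI versus INSL3-KO Mael was at -0.17 to 0.60. P23 INSL3-KI versus WT on the Sertoli scale gave Piwil1 -0.80, Piwil2 -0.65, Tdrd1 -0.50, Tdrd5 -0.46, Tdrd9 -0.55 and Mov10l1 -0.62. There Tdrd6 was at 0.22 with library size, 0.04 and 0.04 with limma and -0.51 to 0.11 without single libraries, Piwil1 at -0.06 to 0.52 without single libraries and Asz1 at 0.14, 0.18 and 0.18 (library size, limma). P23 INSL3-KO versus WT on the pan germ cell scale gave Piwil2 0.24, Tdrd1 0.27, Mov10l1 0.32 and Asz1 0.65. P23 INSL3-KI versus INSL3-KO gave Piwil4 0.08 (Sertoli) and Asz1 -0.84 (pan germ cell). P40 INSL3-KI versus WT gave Mov10l1 0.07 with library size and on the pan germ cell scale and Asz1 0.01 with library size.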
